A study of Mus musculus with 8 samples.

Results

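Genes of antigen presentation by the major histocompatibility complex (MHC) were examined in the hearts of newborn and 1-week-old mice. The set was a named list of 10 genes, chosen by symbol with earlier results of these data known. It holds the class I chains H2-K1, H2-D1 and B2m, the class II chains H2-Aa, H2-Ab1 and H2-Eb1 with the invariant chain Cd74, the peptide transporter Tap1 and the immunoproteasome subunits Psmb8 and Psmb9. All 10 were found, each at 1 of the 39614 loci with a gene symbol among 80155 loci in all.

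The hearts came from male mice of the outbred stock Hsd:ICR(CD-1). The 2 groups were 4 hearts of postnatal day 1 (P1) and 4 hearts of postnatal day 7 (P7), each sequenced as 1 library from RNA depleted of ribosomal RNA. The atrial appendages had been cut off, and no cell type was separated from the rest of the tissue, so a level is an average over all cells of the heart. The study set these days side by side because the mouse heart loses its capacity to regenerate between them. The 7 cardiomyocyte markers summed to 19306 to 34265 FPKM in the P1 hearts and 23826 to 36981 FPKM in the P7 hearts, and 0 of them passed the limma test between the stages (2 at an unadjusted p under 0.05).

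Class I molecules consist of a heavy chain, such as the products of H2-K1 and H2-D1, bound to beta-2-microglobulin, the product of B2m. They are carried by nearly all nucleated cells and show peptides from inside the cell to cytotoxic T cells. These peptides are cut by the proteasome, in which Psmb8 and Psmb9 replace constitutive subunits, and are carried into the endoplasmic reticulum by the transporter made of Tap1 and Tap2. Class II molecules are pairs of alpha and beta chains that show peptides taken up from outside. They are made mainly by macrophages, dendritic cells and B cells, and the invariant chain Cd74 guides them to the compartment where peptide is loaded. In the healthy heart class II molecules are known chiefly from resident macrophages and dendritic cells. Interferon gamma is the classic inducer of the whole pathway.

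Promoters of class I and class II genes carry a known set of short motifs. The 250 bases before the start of 8 of the 10 genes were read from the RefSeq promoters of GRCm38.p6, and 5 motifs were searched on both strands. H2-K1 (minus strand, chr17:34000348-34000597), H2-D1 (plus strand, chr17:35262844-35263093), B2m (plus strand, chr2:122147437-122147686) and H2-Aa (minus strand, chr17:34287824-34288073) are shown because they held the same 3 kinds of match. The fifth sequence, Tap1 (plus strand, chr17:34187306-34187555), is shown because it is also most of the promoter of Psmb9. Capitals mark a match on either strand to the Y box (ATTGG), the NF-kappaB motif (GGNNTTNCC) or the interferon-response motif (TTTCNNTT). Each line runs 5′ to 3′ and ends at the base before the start.
H2-K1: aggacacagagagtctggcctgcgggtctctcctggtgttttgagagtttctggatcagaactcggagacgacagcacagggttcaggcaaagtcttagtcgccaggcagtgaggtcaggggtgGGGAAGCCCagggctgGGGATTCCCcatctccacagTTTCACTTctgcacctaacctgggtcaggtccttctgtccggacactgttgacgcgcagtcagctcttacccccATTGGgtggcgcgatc
H2-D1: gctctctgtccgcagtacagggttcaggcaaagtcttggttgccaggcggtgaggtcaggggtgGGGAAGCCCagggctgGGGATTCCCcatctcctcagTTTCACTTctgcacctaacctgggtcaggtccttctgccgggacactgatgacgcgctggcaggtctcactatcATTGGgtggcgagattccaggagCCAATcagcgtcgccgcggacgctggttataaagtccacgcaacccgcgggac
B2m: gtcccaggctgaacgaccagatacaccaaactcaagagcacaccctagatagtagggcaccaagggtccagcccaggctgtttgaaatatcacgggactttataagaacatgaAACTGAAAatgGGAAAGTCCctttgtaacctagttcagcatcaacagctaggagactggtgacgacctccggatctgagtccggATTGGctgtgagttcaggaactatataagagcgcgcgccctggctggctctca
H2-Aa: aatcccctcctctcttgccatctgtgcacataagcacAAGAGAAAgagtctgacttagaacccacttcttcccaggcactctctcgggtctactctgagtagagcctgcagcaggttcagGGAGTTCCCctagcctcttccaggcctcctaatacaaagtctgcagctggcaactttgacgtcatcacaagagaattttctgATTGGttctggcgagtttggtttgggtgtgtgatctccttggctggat
Tap1: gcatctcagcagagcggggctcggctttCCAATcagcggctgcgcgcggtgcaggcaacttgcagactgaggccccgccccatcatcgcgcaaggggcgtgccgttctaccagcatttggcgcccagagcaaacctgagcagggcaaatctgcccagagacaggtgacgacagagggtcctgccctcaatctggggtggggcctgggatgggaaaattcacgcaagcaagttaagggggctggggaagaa

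The promoters of H2-K1 and H2-D1 were nearly the same sequence. They were identical at 170 of 190 aligned bases (89.5%) and shared an unbroken run of 47 bases. Every other pair of the 8 was identical at 44.6% to 61.7%, with each promoter read on its own strand. This reading does not count the bases that Tap1 and Psmb9 share on opposite strands, given below. In both genes an NF-kappaB motif on each strand was followed after 20 bases by the interferon-response motif and after 74 more by a Y box, counted from first base to first base. The whole arrangement lay nearer to the start in H2-K1, where the interferon-response motif began at position -90, than in H2-D1, where it began at -150. In H2-K1 the RefSeq table lists 2 starts, and the first was used. B2m held the interferon-response motif at -137 and H2-Aa at -213, both on the opposite strand. The motifs are short and common. Of 32851 promoters of the same length, 33.8% held the Y box, 21.3% the interferon-response motif, 13.5% the NF-kappaB motif, 8.95% the X box (GNNACANAT) and 7.02% the GAS motif (TTCNNNGAA). The GAS letters were matched in Psmb8 alone among the 8, at -97, and the X box letters in none of these windows. The search takes exact letters and misses a box that departs from the pattern, so it does not show that an X box is absent. Tap1 and Psmb9 start 226 bases apart on opposite strands, and their windows share 225 bases. A match describes letters only, and no binding was measured.

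Expression is given as FPKM (fragments scaled to the length of the locus and to the mapped total of the heart), so levels of different genes can be compared per length. Loci that reached 1 FPKM in any heart (43172, of which 17960 carry a symbol) were compared between the stages with limma on log2(FPKM + 1), and a locus was called with a Benjamini-Hochberg adjusted p under 0.05 over all of them and a 1.5-fold or larger ratio of the stage means. A fold change on this scale (log2FC, P7 minus P1) understates the change of weakly expressed genes. An unadjusted p under 0.05 was common. Cd68, at an unadjusted p of 0.0467 in limma, ranked only 7697 by p among the 43172 loci. All 10 genes passed the filter, although H2-Aa and H2-Eb1 did so through 1 heart each. The hearts also differed in overall measures. Loci at 1 FPKM or more numbered 21382 to 28662 in P1 and 20269 to 21880 in P7, highest in P1 replicate 3 and in 3 of the 4 P1 hearts above every P7 heart, and loci without a symbol took 33.1% to 72.7% of the FPKM total, most in P7 replicate 4. The median log2FC over the annotated loci was 0.19, and scaling each heart by its median ratio brought it to 0.00. With that scaling 1388 annotated loci were called higher and 621 lower, against 1390 and 72 without it.

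Among the 10 genes, the class I heavy chains had the largest log2FC on the log2(FPKM + 1) scale, while by the ratio of means Psmb9, which was not called, stood between them. H2-K1, H2-D1 and Psmb8 were called higher in P7, and no member was called lower. These 3 of 10 stand beside 7.74% of the annotated loci called higher and 8.14% called in either direction. Every P7 heart lay above every P1 heart in 5 of the 10 genes, namely H2-K1, H2-D1, B2m, H2-Ab1 and Psmb8, beside 17.3% of annotated loci. The log2FC was above 0 in all 10 genes, with a median of 0.69, and above 0 at 12147 of the 17960 loci. The class II chains and Cd74 stayed near 1 FPKM or below in both stages and none of them was called by limma, nor had any an unadjusted p under 0.05. The number of called members moved with single hearts, as did that of all annotated loci. Of the annotated loci, 1462 were called with all hearts, 167 without P1 replicate 2 and 2835 without P1 replicate 4. The member count was 2, 1, 1 and 4 without P1 replicates 1, 2, 3 and 4, and 1, 3, 1 and 2 without P7 replicates 1, 2, 3 and 4. It was 0 without P1 replicate 3 and P7 replicate 4 together, when 6 members still had an unadjusted p under 0.05 in limma.

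**Figure D1:**
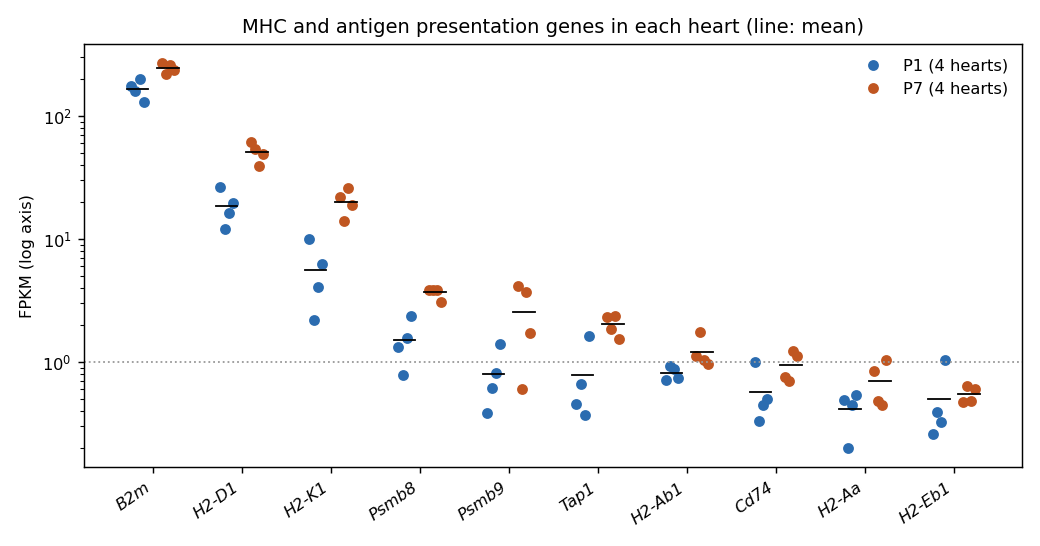
Expression of the 10 genes in each heart, as FPKM on a log axis, with blue points for the 4 P1 hearts, orange points for the 4 P7 hearts and a bar at the mean of each stage. B2m lies above 100 FPKM in every heart and the class II genes near or below 1 FPKM, marked by the dotted line, and the points of the stages are apart in H2-K1, H2-D1, B2m, H2-Ab1 and Psmb8.

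H2-K1 encodes a classical class I heavy chain and lies on the minus strand of chromosome 17 (GRCm38, chr17:33996017-34000333). The 4 P1 hearts held 10.11, 2.18, 4.04 and 6.26 FPKM, and the 4 P7 hearts 21.9, 13.9, 25.8 and 19 FPKM. The lowest P7 heart was above the highest P1 heart, and among the P1 hearts replicate 2 was lowest and replicate 1 highest. The mean went from 5.65 ± 3.41 to 20.2 ± 5.03 FPKM (SD, n = 4 each), a ratio of 3.57. The log2FC was 1.79 (SE 0.33, 95% interval 1.07 to 2.51), with an adjusted p of 0.0176 in limma. With 1 heart left out, the adjusted p passed 0.05 in 4 of 8 fits, at 0.0518 without P1 replicate 2, 0.0537 without P1 replicate 3, 0.0556 without P7 replicate 1 and 0.0548 without P7 replicate 3, while the log2FC stayed between 1.48 and 2.08.

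H2-D1 is the second classical heavy chain gene of the reference strain, on the plus strand at the other end of the complex (chr17:35262730-35267499). Its P1 hearts held 26.4, 12.1, 16.4 and 19.6 FPKM and its P7 hearts 62, 53.6, 39.3 and 49.3 FPKM. As in H2-K1 the groups did not overlap, and P1 replicate 2 was again the lowest and P1 replicate 1 the highest of its stage. The mean rose from 18.6 ± 6.04 to 51.1 ± 9.43 FPKM, a ratio of 2.74, with a log2FC of 1.44 (SE 0.24, 95% interval 0.92 to 1.96, limma adjusted p = 0.0121). H2-D1 was called with each of the 8 hearts left out in turn, with adjusted p from 0.00833 to 0.0461. It was not called without P1 replicate 3 and P7 replicate 4 together (limma adjusted p = 0.0658). The call was also lost without the filter (0.0665) and after GC correction with median-ratio scaling (log2FC 0.89, 0.0715). With GC correction alone the log2FC was 1.13 and the limma adjusted p 0.0422.

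B2m, the light chain that every class I heavy chain needs, had the highest level of the 10 genes. It stood at 176, 160, 201 and 131 FPKM in P1 and at 269, 221, 262 and 238 FPKM in P7. The groups were apart, but the step was smaller than in the heavy chains. The mean was 167 ± 29.1 FPKM in P1 and 247 ± 22 FPKM in P7, a ratio of 1.48, just under the 1.5 used for a call. The log2FC was 0.58 (SE 0.20, 95% interval 0.15 to 1.01) and the adjusted p 0.141 in limma, so B2m was not called. The deposited B2m locus (chr2:122120108-122186189) spans 66082 bases, far more than the 5398 bases of the gene, and takes in the loci of Trim69 and Patl2, which held means of 0.03 and 0.021 FPKM.

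The heavy chains were also set against the light chain within each heart, which takes the scaling of the heart out. H2-K1 stood at 5.75%, 1.36%, 2.01% and 4.77% of the FPKM of B2m in the P1 hearts and at 8.16%, 6.27%, 9.85% and 8% in the P7 hearts. The groups did not overlap, and the geometric mean ratio was 2.70 times higher in P7. The exact two-sided permutation test gave p = 0.0286, the smallest that 4 hearts against 4 allow, and 0.343 after Benjamini-Hochberg adjustment over the 12 ratios tested. H2-D1 stood at 15%, 7.58%, 8.16% and 14.9% of B2m in P1 and at 23.1%, 24.3%, 15% and 20.7% in P7, 1.88 times higher (exact permutation p = 0.0571, adjusted 0.343). After adjustment 0 of the 12 ratios passed, and the one for H2-K1 alone had an unadjusted p under 0.05. With 4 hearts per stage, 1 ratio alone cannot pass after adjustment over 12, even when the stages are fully apart. The adjusted result therefore cannot decide whether the ratio of H2-K1 to B2m differs.

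Reads of class I genes are hard to place. The heavy chain genes are near copies of each other, and they are among the most variable genes between mice, whereas the reads of these outbred animals were aligned to the genome of 1 inbred strain. The MHC haplotypes of the 8 hearts are not known here, and their part in the spread of H2-K1 and H2-D1 was not tested. Of the 26 class I-like genes listed, 22 loci were found and 12 of these did not reach 1 FPKM in any heart. Among the 10 tested, 2 were called, both higher, and the median log2FC was 0.32. Fcgrt, the receptor that carries immunoglobulin G across cells and also pairs with B2m, rose from 17.4, 13.7, 12.9 and 20.6 FPKM in P1 to 52.4, 48.4, 48.8 and 35.9 FPKM in P7 (log2FC 1.48, SE 0.21, limma adjusted p = 0.00615). H2-T22, a non-classical chain recognised by gamma delta T cells, rose from a mean of 2.32 ± 1.07 to 5.98 ± 1.66 FPKM (log2FC 1.10, SE 0.26, limma adjusted p = 0.0387). H2-Q4, another non-classical chain, held 12.4 ± 1.53 FPKM in P1 and 12 ± 1.35 FPKM in P7, with a log2FC of -0.04 and a 95% interval from -0.42 to 0.34. H2-T23 went from 5.38 ± 0.167 to 9.01 ± 2.71 FPKM with no overlap of the groups, and was not called (limma adjusted p = 0.154).

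Tap1, the first chain of the peptide transporter, was low in most P1 hearts. It read 0.459, 0.661, 0.37 and 1.63 FPKM in P1 and 2.34, 1.84, 2.35 and 1.55 FPKM in P7. P1 replicate 4 stood apart from the other P1 hearts and just above P7 replicate 4, the only overlap. The mean was 0.779 ± 0.578 FPKM in P1 and 2.02 ± 0.392 FPKM in P7 (ratio 2.59), with a log2FC of 0.80 (SE 0.23, 95% interval 0.30 to 1.30, limma adjusted p = 0.0782), and 1.45 when 0.1 in place of 1 was added before the logarithm. Without P1 replicate 4 it was called (log2FC 1.01, adjusted p = 0.0111). That was the only call in 8 fits with 1 heart left out, where the limma adjusted p reached 0.207. Tap2, its partner in the transporter, was called, with 1.3 ± 0.371 FPKM in P1 and 3.94 ± 0.702 FPKM in P7 (log2FC 1.11, SE 0.20, limma adjusted p = 0.0145). The ratio of Tap1 to Tap2 lay between 0.277 and 1.04 in P1 and between 0.485 and 0.576 in P7 and did not differ in its mean beyond this spread (exact permutation p = 0.886).

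Of the 8 peptide loading genes besides Tap1, all tested, Tap2 and Tapbp were called higher and none lower, with a median log2FC of 0.22. Tapbp, the protein tapasin that bridges class I molecules and the transporter, rose from 21.2 ± 4.48 to 41.3 ± 7.62 FPKM (log2FC 0.93, SE 0.21, limma adjusted p = 0.0304). Calr, the chaperone calreticulin, held 137, 122, 85.2 and 168 FPKM in P1 and 188, 187, 300 and 235 FPKM in P7. Its groups did not overlap, but it was not called (log2FC 0.84, SE 0.25, limma adjusted p = 0.0863). The next genes by level showed no such step. Canx, the chaperone calnexin, held 182 ± 33.5 and 162 ± 37.2 FPKM (log2FC -0.17), Lnpep, an aminopeptidase, 67.3 ± 2.38 and 71.9 ± 19.2 FPKM (0.06), and Pdia3, a partner of calreticulin, 59.6 ± 11 and 57.7 ± 10.5 FPKM (-0.05). The sign of these small values turned with GC correction for Canx and Pdia3 (0.09 each) and with median-ratio scaling for Lnpep (-0.18).

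Psmb8, which encodes the immunoproteasome subunit that replaces Psmb5, was the third member called. Its P1 hearts held 1.33, 0.782, 1.57 and 2.35 FPKM and its P7 hearts 3.87, 3.88, 3.87 and 3.1 FPKM. All P7 hearts were above all P1 hearts, and 3 of the P7 hearts were almost equal. The mean rose from 1.51 ± 0.651 to 3.68 ± 0.387 FPKM, a ratio of 2.44, with a log2FC of 0.93 (SE 0.21, 95% interval 0.47 to 1.39, limma adjusted p = 0.033). The call depended on having all hearts. It was lost in 7 of 8 fits with 1 heart left out, with adjusted p between 0.0544 without P7 replicate 4 and 0.118 without P1 replicate 2, and kept without P1 replicate 4 alone (0.00853). The log2FC in these fits stayed between 0.78 and 1.08. After correction for GC content it was 0.81 with an adjusted p of 0.0793.

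Psmb9, the subunit that replaces Psmb6, varied most between P7 hearts. It read 0.386, 0.616, 0.818 and 1.4 FPKM in P1 and 4.12, 0.605, 3.71 and 1.73 FPKM in P7. P7 replicate 2 lay inside the range of the P1 hearts and the other P7 hearts above it. The mean was 0.806 ± 0.435 FPKM in P1 and 2.54 ± 1.66 FPKM in P7 (ratio 3.15), with a log2FC of 0.86 (SE 0.34, 95% interval 0.13 to 1.59, limma adjusted p = 0.196). Without P7 replicate 2 the log2FC was 1.19 and the adjusted p 0.046. This was the only call in 8 fits with 1 heart left out, where the limma adjusted p reached 0.429. Tap1 and Psmb9 carry the same locus interval in the files (chr17:34181988-34197225), and the Psmb8 locus (chr17:34197721-34216321) takes in Tap2. Tap1 and Psmb9 lie on opposite strands. Their spans in the GENCODE annotation overlap at their starts, although the RefSeq starts used for the promoters lie 226 bases apart. Whether fragments were counted by strand is not given in the sources used here, so the levels of Tap1 and Psmb9 are uncertain to that extent.

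Neither the third inducible subunit nor any constitutive subunit was called. Psmb10, which replaces Psmb7, held 13.9, 11.7, 8.28 and 18.3 FPKM in P1 and 10.5, 13.3, 24.4 and 12 FPKM in P7, with overlapping groups and a log2FC of 0.17 (95% interval -0.43 to 0.78), which turned to -0.05 with median-ratio scaling and -0.17 with GC correction. Psmb5, Psmb6 and Psmb7 had log2FC of 0.37, 0.26 and 0.26, and 0 of the 4 genes of the constitutive list were called by limma or had an unadjusted p under 0.05. Psmb8 stood at 3.83%, 2.54%, 4.63% and 9.04% of Psmb5 in the P1 hearts and at 9.03%, 10.3%, 8.43% and 8.43% in the P7 hearts. This was 2.01 times higher in P7 by geometric mean, with P1 replicate 4 inside the P7 range (exact permutation p = 0.114, adjusted 0.457). The ratio of Psmb9 to Psmb6 was 2.30 times higher (exact permutation p = 0.2) and that of Psmb10 to Psmb7 differed by -0.07 on the log2 scale (exact permutation p = 0.8). Of the proteasome activator PA28, Psme1 was called (62.8 ± 18.4 to 120 ± 23 FPKM, log2FC 0.96, SE 0.24, limma adjusted p = 0.0473), and its partner Psme2 was not (32.8 ± 8.29 to 48.4 ± 8.26 FPKM, log2FC 0.57, SE 0.22).

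**Figure D2:**
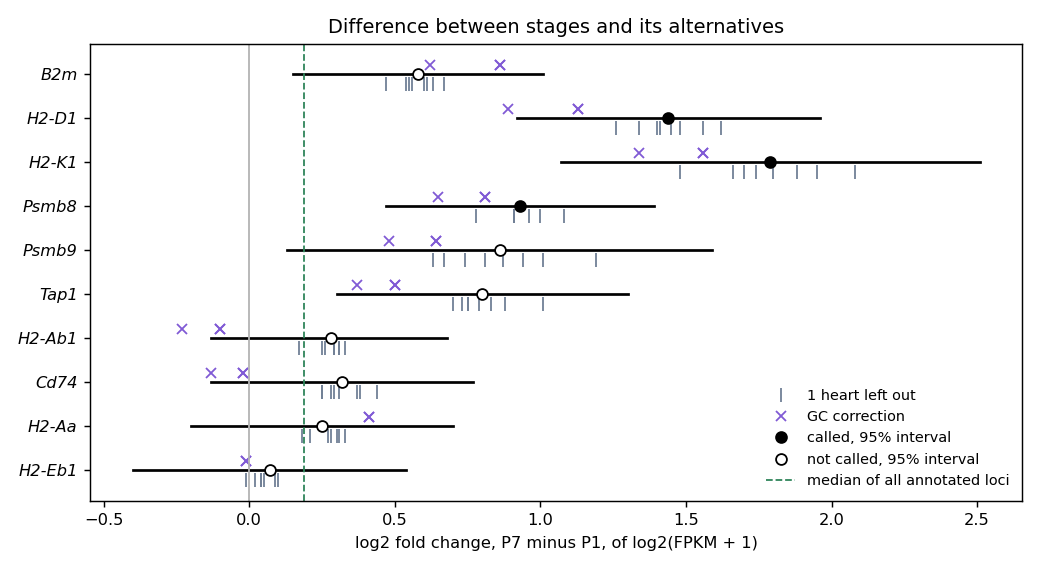
Difference between the stages of the 10 genes as log2 fold change of log2(FPKM + 1), P7 minus P1, ordered by mean level, with circles for the fit to all hearts (filled where called), bars for its 95% interval, ticks for fits with 1 heart left out and crosses for GC correction with and without median-ratio scaling. The intervals of H2-K1, H2-D1, Psmb8 and Tap1 lie to the right of the dashed line at the median of all annotated loci (0.19), and GC correction takes H2-Ab1, Cd74 and H2-Eb1 to or below 0.

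The class II chains were near the lower end of what these libraries resolve. One fragment per kilobase was worth 0.0483 to 0.0765 FPKM in the 8 hearts, as read from the steps of the lowest values. H2-Aa, the alpha chain of the I-A molecule (chr17:34282744-34287827), held 0.488, 0.199, 0.445 and 0.543 FPKM in P1 and 0.848, 0.486, 0.444 and 1.03 FPKM in P7. The groups overlapped. The mean was 0.419 ± 0.152 FPKM in P1 and 0.702 ± 0.284 FPKM in P7, with a log2FC of 0.25 (SE 0.21, 95% interval -0.20 to 0.70, limma adjusted p = 0.487).

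H2-Ab1, the beta chain that pairs with the product of H2-Aa (chr17:34263209-34269418), was the highest of the class II genes. It read 0.709, 0.926, 0.875 and 0.741 FPKM in P1 and 1.11, 1.75, 1.04 and 0.957 FPKM in P7. The groups did not overlap, but by a narrow margin, since the highest P1 heart was just below the lowest P7 heart. The mean was 0.813 ± 0.104 FPKM in P1 and 1.21 ± 0.361 FPKM in P7 (ratio 1.49), with a log2FC of 0.28 (SE 0.19, 95% interval -0.13 to 0.68, limma adjusted p = 0.427). With GC correction the sign turned, to -0.10.

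H2-Eb1, the beta chain of the I-E molecule (chr17:34305883-34316199), showed no separation. It read 0.258, 0.389, 0.326 and 1.04 FPKM in P1 and 0.471, 0.642, 0.484 and 0.607 FPKM in P7. P1 replicate 4 was the highest of all 8 hearts and the other P1 hearts were the lowest. The log2FC was 0.07 (SE 0.22, 95% interval -0.40 to 0.54, limma adjusted p = 0.856), and -0.01 with GC correction. Of the further class II symbols listed, H2-Eb2 and H2-Ea-ps, by its symbol a pseudogene, lay at 2 loci that did not pass 0.301 FPKM in any heart. The symbol H2-Ea was not matched to a locus of its own.

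Cd74, the invariant chain, is on chromosome 18 and not in the complex (chr18:60803848-60812646), at a locus that also carries the symbol of the microRNA Mir5107. It held 0.991, 0.33, 0.444 and 0.503 FPKM in P1 and 0.751, 0.698, 1.23 and 1.11 FPKM in P7. P1 replicate 1 was above 2 of the P7 hearts, and the other P1 hearts were below all of them. The mean was 0.567 ± 0.292 FPKM in P1 and 0.949 ± 0.265 FPKM in P7 (ratio 1.67), with a log2FC of 0.32 (SE 0.21, 95% interval -0.13 to 0.77, limma adjusted p = 0.406), and -0.02 with GC correction. With 0.1 added in place of 1, the log2FC of H2-Aa, H2-Ab1, H2-Eb1 and Cd74 were 0.62, 0.49, 0.26 and 0.71, and the adjusted p 0.375 or more. Within the hearts, the ratio of H2-Aa to H2-Ab1 went from 0.214 to 0.733 in P1 and from 0.278 to 1.08 in P7 (exact permutation p = 0.743), and that of Cd74 to H2-Ab1 from 0.356 to 1.4 and from 0.399 to 1.19 (exact permutation p = 0.686).

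**Figure D3:**
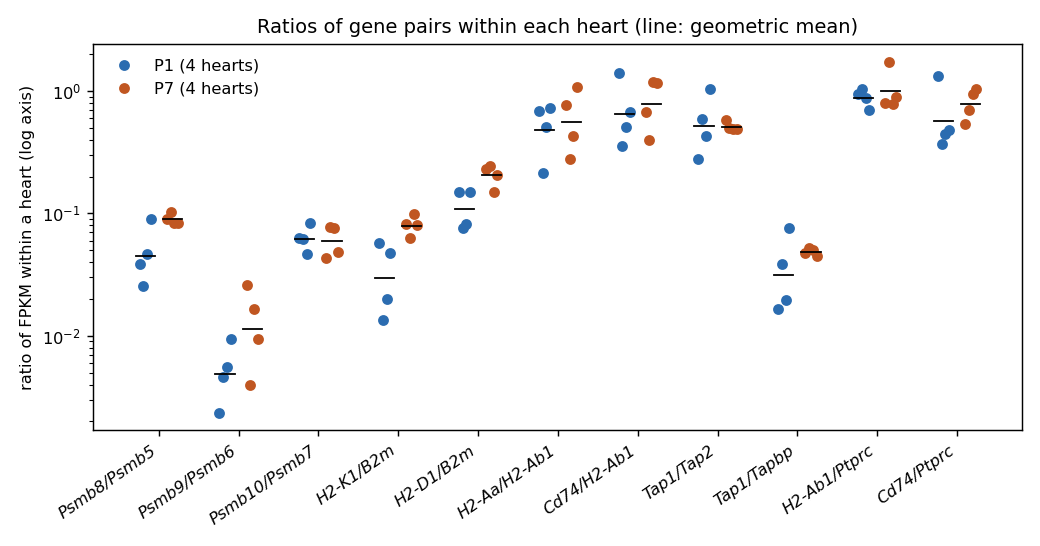
Ratios of FPKM of gene pairs within each heart on a log axis, blue for the 4 P1 hearts and orange for the 4 P7 hearts, with a bar at the geometric mean of each stage. Points of the stages are apart for H2-K1 over B2m alone, and the ratio of B2m to Ptprc, between 125 and 236, is not drawn.

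Of 11 genes for class II loading and lysosomal cutting, 7 were tested and 1, Ifi30, was called, and 4, all dedicated loading chains, did not reach 1 FPKM in any heart. Ifi30, the lysosomal thiol reductase GILT that opens disulphide bonds of antigens, held 3.91, 4.75, 3.24 and 4.71 FPKM in P1 and 6.62, 7.89, 8.58 and 8.86 FPKM in P7 (log2FC 0.81, SE 0.18, limma adjusted p = 0.0332). The median log2FC of the list was 0.60. Its most abundant members are lysosomal proteases. Lgmn went from 22.3 ± 7.76 to 40.3 ± 5.97 FPKM without overlap (limma adjusted p = 0.0614), Ctsb from 21.8 ± 6.76 to 35.6 ± 9.86 FPKM (0.153) and Ctsl from 67.9 ± 18 to 84.8 ± 16.9 FPKM (0.431). Ctss, the next by level, held 11.4 ± 2.93 and 11.2 ± 1.31 FPKM, with a log2FC of -0.01 (limma adjusted p = 0.987).

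Of the regulators of MHC genes, 14 were listed, 12 were tested and 1 was called, with a median log2FC of 0.34. Rfxap, a subunit of the RFX complex that binds the X box, rose from 4.24, 3.16, 2.6 and 4.9 FPKM to 7.93, 9.89, 8.51 and 6.47 FPKM (log2FC 0.98, SE 0.21, limma adjusted p = 0.027). The values of 3 further regulators were looked up because of their roles, after the results were seen. Ciita, the master activator of class II genes, held 1.16, 0.502, 1.09 and 1.31 FPKM in P1 and 1.34, 1.16, 1.07 and 2.59 FPKM in P7, with overlapping groups (log2FC 0.32, SE 0.23, limma adjusted p = 0.447). Nlrc5, its counterpart for class I genes, was between 0.01 and 0.352 FPKM in the 8 hearts and was not tested. Irf1, which binds interferon-response motifs, had means of 1.97 ± 1.19 FPKM in P1 and 3.92 ± 1.31 FPKM in P7 (log2FC 0.78, SE 0.28, limma adjusted p = 0.168).

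Interferon gamma and its response were listed with 19 genes at 18 loci. Of the 12 tested, 1 was called, and the median log2FC of 0.21 was close to the 0.19 of all annotated loci. The called gene, Ifngr2, encodes a chain of the receptor for interferon gamma and went from 21, 12.4, 9.14 and 23.6 FPKM to 30.3, 29.7, 44.2 and 34.7 FPKM (log2FC 1.10, SE 0.28, limma adjusted p = 0.0464). It is a receptor chain and not one of the interferon-induced genes of the list. Of the 8 co-stimulation genes, 3 were tested and 0 were called by limma (1 at an unadjusted p under 0.05), with a median of 0.28.

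Over all these pathway lists, with the 10 genes left out, 96 genes were listed, 90 were found, at 89 loci, and 59 loci were tested. The 8 called, Fcgrt, H2-T22, Tap2, Tapbp, Psme1, Ifi30, Rfxap and Ifngr2, were all higher in P7. That is 8 of 59 beside 7.74% of annotated loci called higher, and in 18 of the 59 the stages did not overlap with P7 higher, beside 17.3%. An unadjusted p under 0.05, common over all tested loci as given above, was found for 19, and the median log2FC was 0.28. The number of pathway genes called also depended on single hearts, as did the calls over all annotated loci given above. The pathway count was 4, 1, 2 and 13 without P1 replicates 1, 2, 3 and 4. It was 2, 3, 1 and 4 without P7 replicates 1, 2, 3 and 4, and 1 after GC correction. After GC correction 411 annotated loci were called, against 1462 without it.

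**Figure D4:**
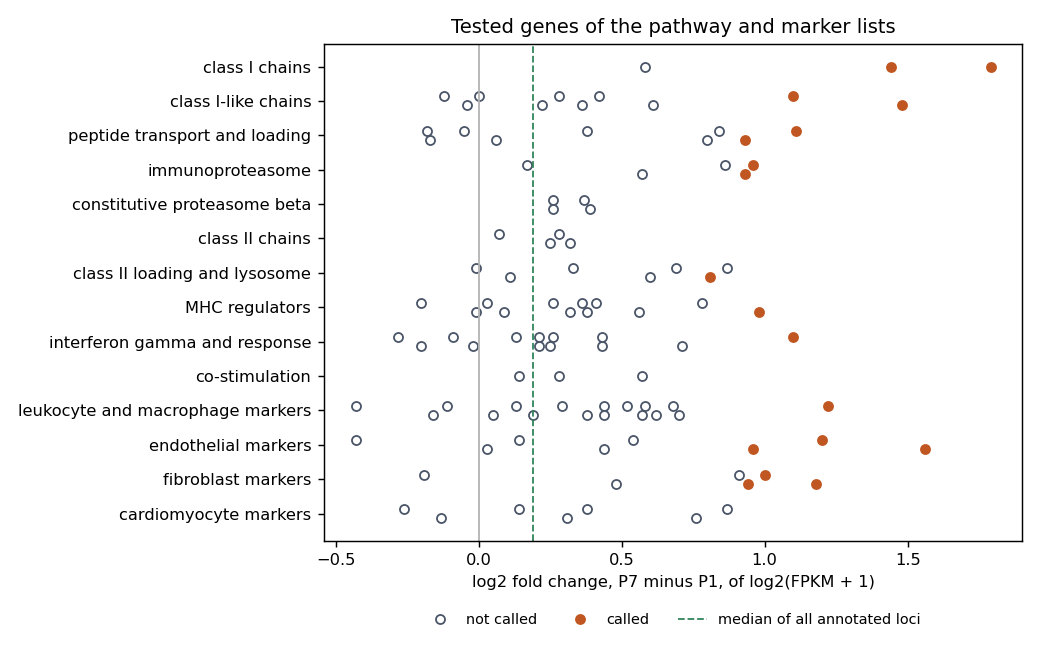
Log2 fold change of log2(FPKM + 1), P7 minus P1, of each tested gene of the pathway and marker lists, 1 row per list, orange where called and open where not. The dashed line is the median of all annotated loci (0.19), the called genes lie to the right in every list that has any, and the constitutive proteasome, class II chain, co-stimulation and cardiomyocyte rows have none. The dendritic, B, and T and NK cell lists, also without a called gene, are not drawn.

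Markers of cells that carry MHC molecules are given beside these results, and their part in them was not tested. In bulk tissue fewer cells of a type and less RNA per cell cannot be told apart. The 19 leukocyte and macrophage markers summed to 73.8 to 88.2 FPKM in the P1 hearts and 108 to 154 FPKM in the P7 hearts, without overlap. Of the 17 tested, 1 was called, Lyz2, the lysozyme of macrophages and neutrophils (13.6 ± 1.49 to 33.3 ± 5.59 FPKM, log2FC 1.22, SE 0.19, limma adjusted p = 0.00789), 8 had an unadjusted p under 0.05, and the median log2FC was 0.44. The next genes of this list by level were not called and did not share a direction. Tyrobp, an adaptor of myeloid receptors, and C1qa, a complement gene of macrophages, had log2FC of 0.62 and 0.70 (limma adjusted p = 0.105 and 0.0844), and Fcer1g had 0.29. Mrc1, the mannose receptor of resident macrophages, had -0.16, and 0.07 after GC correction. Lyve1, another marker of resident macrophages and looked up after the results were seen, had -0.43 (95% interval -0.92 to 0.05). Ptprc (CD45), carried by all leukocytes and looked up after the results were seen, held 0.745, 0.893, 1 and 1.05 FPKM in P1 and 1.39, 1, 1.31 and 1.08 FPKM in P7 (log2FC 0.19, 95% interval -0.19 to 0.57). Per unit of Ptprc the differences were a log2 ratio of 0.21 for B2m, 0.17 for H2-Ab1 and 0.45 for Cd74 (exact permutation p = 0.371, 0.743 and 0.343).

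Markers of B cells, dendritic cells, and T and NK cells were also summed. The lists differ in size and in genes, so their sums do not rank the cell types. The 5 B cell markers did not reach 1 FPKM in any heart. They summed to 0.377 to 0.845 FPKM in P1 and 0.973 to 1.83 FPKM in P7, without overlap. The 7 dendritic cell markers summed to 6.57 to 9.1 and 6.96 to 9.16 FPKM, with 0 of 3 tested called by limma or at an unadjusted p under 0.05, and the 8 T and NK cell markers to 0.752 to 4.21 and 1.52 to 3.34 FPKM, with 0 of 1 by either measure. None of the marker genes was at 0 in all hearts. Vascular and stromal cells also carry class I molecules, and their markers were mixed. The 8 endothelial markers summed to 112 to 179 FPKM in P1 and 167 to 252 FPKM in P7 and 3 were called, Cldn5 (log2FC 1.56), Tie1 (1.20) and Cdh5 (0.96). Of those not called, Kdr and Pecam1 had 0.54 and 0.44, and Emcn had -0.43, with every P7 heart below every P1 heart (limma adjusted p = 0.244, and under 0.05 with median-ratio scaling or quantile normalization). The 6 fibroblast markers summed to 664 to 1277 and 1166 to 1482 FPKM and 3 were called, Dcn (1.18), Tcf21 (1.00) and Col1a1 (0.94). Col1a2 had 0.91 and Postn, the most abundant of the list, -0.19, and neither was called. The cardiomyocyte markers had a median log2FC of 0.31.

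Profiles over the 8 hearts were compared for the most abundant member and the most abundant class II chain. Likeness was the root mean square difference of log2(FPKM + 1) values, each centred on its gene's mean, over 14880 loci with 1 symbol and a mean of at least 1 FPKM. The 5 nearest to B2m were Derl2, Fgfr2 (both 0.079), Marcks (0.086), Gm10231 and Mocs3 (both 0.094). The 5 nearest to H2-Ab1 were Manf (0.076), Trim26 (0.104), Zmynd17, 2310061I04Rik (both 0.105) and Ccl24 (0.110). None of the 10 members was among the nearest of either gene. H2-Aa, H2-Eb1 and Cd74 had means below 1 FPKM and were not candidates. For these the comparison therefore shows nothing. With 8 hearts and 2 stages, many genes that differ by a like amount between the stages come close by this measure.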

How the data were processed

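RNA from whole hearts of 4 P1 and 4 P7 mice was sequenced in paired ends as 1 library per heart. Alignment to GRCm38, summation over the loci of Ensembl release 70 and of unannotated transcripts, and normalization were done by the authors' service provider, and the deposited unit is FPKM per locus; the aligner is not given in the sources used here. The files hold no counts, so depth is known only from the fragment steps of low values: among loci of 1500 to 2500 bases, 95.1% to 99.1% of low values lay within 0.15 of a whole step.

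Symbols were matched ignoring case, joined symbols were split, and of several loci the one with the highest mean FPKM was taken. Values were compared with limma 3.58.1 in R 4.3.3 (lmFit, eBayes with trend, no covariates, pseudocount 1). Ratios of genes within a heart were compared with an exact two-sided permutation test over the 70 assignments of 4 hearts to a stage, and p-values were adjusted over the 12 ratios. Python 3.11.15, pandas 2.3.3, numpy 2.4.6, scipy 1.17.1 and Biopython 1.88 were used for tables and promoters. The scripts were tested on simulated data. The text names all 10 members, list genes that were called, up to 4 others of a list in the order of mean FPKM, the 5 nearest profiles of 2 genes, and a few genes said to be looked up afterwards. The members, the lists and the tests were chosen with earlier results of these data known.

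Alternatives were a pseudocount of 0.1, no filter, FPKM of at least 1 in every heart, the adjusted p alone, eBayes without trend, array weights for the quality of each heart, a block for the replicate number, quantile normalization, median-ratio scaling, GC correction (lowess with a span of 0.3 on the GC content of the longest GENCODE M21 transcript, known for 85.9% of annotated tested loci and all 10 members) and each heart left out. GC correction with the block, GC correction with median-ratio scaling, and P1 replicate 3 and P7 replicate 4 left out together were added after seeing the data. Nothing in the labels says whether the mice shared litters, and p-values measure the spread between these hearts.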

Additional observations from a re-analysis of the deposited data

Results flagged for a closer look

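A heart was singled out where its gap to the nearest heart of its stage, divided by the whole range of that stage (the share given here), passed Dixon's 95% critical value for 4 hearts. Of 130 groups of 4 hearts examined, 4 were singled out, and chance alone gives about 1 in 20, or 6.5. H2-Eb1 in P1 replicate 4 stood at 1.04 FPKM, against 0.258 to 0.389 FPKM in the other P1 hearts (share 0.834). Psmb8 in P7 replicate 4 stood at 3.1 FPKM, against 3.87 to 3.88 FPKM in the other P7 hearts (share 0.99), still above every P1 heart. The ratio of H2-Ab1 to Ptprc in P7 replicate 2 was 1.74, against 0.79 to 0.886 (share 0.899). The ratio of Cd74 to Ptprc in P1 replicate 1 was 1.33, against 0.369 to 0.478 (share 0.886).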

How the results depend on the processing

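The number of members called, 3 with all hearts, was 0 without the filter (5 still had an unadjusted p under 0.05 in limma), 1 after GC correction with median-ratio scaling, 0 without P1 replicate 3 and P7 replicate 4 together, and 1 to 4 with 1 heart left out. It was 2 to 4 under all other alternatives. The number of pathway genes called, 8, was 1 without the filter, 13 with sample quality weights, 4 by eBayes without trend, 1 after GC correction with or without the replicate block, 4 after GC correction with median-ratio scaling, 1 without P1 replicate 3 and P7 replicate 4 together, and 1 to 13 with 1 heart left out. Without the filter 80155 loci were tested in place of 43172. The cause of the other shifts was not tested. Calls over all annotated loci shifted as well, from 1462 to 231 without the filter, 2951 with sample quality weights and 411 after GC correction. Among the members, H2-K1, H2-D1, B2m, Tap1, Psmb8, Psmb9 and H2-Aa kept a log2FC above 0 under every alternative that tested them. The others turned in places. H2-Ab1 had -0.10 after GC correction with or without the block and -0.23 with median-ratio scaling added, Cd74 had -0.02 and -0.13 in the same fits, and H2-Eb1 had -0.01 after GC correction with or without the block and -0.01 to 0.10 with 1 heart left out, below 0 without P1 replicate 1. Of the other genes, Psmb10 had -0.05 with median-ratio scaling, -0.09 with quantile normalization, -0.17 after GC correction with or without the block, -0.40 with median-ratio scaling added, and -0.07 to 0.34 with 1 heart left out (-0.01 without P1 replicate 3 and -0.07 without P7 replicate 3). Canx and Mrc1 had 0.09 and 0.07, and Postn and Pdia3 0.09 each, after GC correction with or without the block, against values below 0 with all hearts uncorrected. Postn had -0.31 to 0.05 and Pdia3 -0.16 to 0.07 with 1 heart left out (Postn 0.05 without P1 replicate 4, Pdia3 0.07 without P1 replicate 4 and 0.04 without P7 replicate 2), and Pdia3 0.00 with sample quality weights. Lnpep had -0.18 with median-ratio scaling, -0.16 with quantile normalization and -0.10 to 0.19 with 1 heart left out (-0.10 without P7 replicate 1), and Fcer1g -0.01 after GC correction with median-ratio scaling. Psmb5, Psmb6 and Ciita had -0.14, -0.05 and -0.09 after GC correction with median-ratio scaling. H2-Q4 had 0.03 without P1 replicate 2 or P7 replicate 4 and 0.01 without P1 replicate 3 and P7 replicate 4 together. With a pseudocount of 1 in both values, the log2 ratio of H2-Aa to H2-Ab1 was -0.02 and that of Tap1 to Tapbp -0.13, against 0.21 and 0.64. With the replicate number as a block 3 members and 6 pathway genes were called. The deviations of same-numbered hearts had correlations of -0.019, 0.122, -0.102 and -0.027, which cannot tell whether these hearts shared a litter or a batch. The filter on every heart left 3 members to test and median-ratio scaling 8.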
